A study of Mus musculus with 9 samples.

Results

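The nuclear genes for subunits of the mitochondrial respiratory chain and of ATP synthase were followed in SCCVII, a mouse tumour cell line from an oral squamous cell carcinoma. Members were the genes whose array annotation symbol starts with Nduf followed by a, b, c, s or v and a number (complex I), is Sdha, Sdhb, Sdhc or Sdhd (complex II), or starts with Uqcr (complex III), Cox4 to Cox8 (complex IV) or Atp5 (ATP synthase, also called complex V). Of 18194 genes tested on Affymetrix mouse expression arrays, 81 met this rule: 35 of complex I, 4 of complex II, 8 of complex III, 17 of complex IV and 17 of ATP synthase. Where several probe sets named a gene and no other, the brightest on average stood for it. There were 3 arrays of each of 3 groups. IR lines were derived from tumours that parental cells had formed in stroma irradiated before injection, and the labels describe them as invasive and metastatic, from strongly hypoxic tumours. NIR lines were derived from tumours formed in stroma that had not been irradiated, and are described as poorly invasive. PA was the parental SCCVII culture kept under standard conditions. All groups share the parental line, and the labels say that the IR lines were expanded in normoxic culture. The design text calls the 9 samples independent, but it is not stated if arrays of the same group trace to different tumours or to repeat dishes, and p-values here measure only the spread between samples, which may be technical.

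The respiratory chain passes electrons from NADH (complex I) and succinate (complex II) through ubiquinone, complex III and cytochrome c to oxygen at complex IV, and complexes I, III and IV pump protons across the inner mitochondrial membrane. ATP synthase lets these protons flow back through a ring of c subunits, which turns the stalk inside a catalytic F1 head that makes ATP. Most subunits are encoded in the nucleus, and several complex IV subunits exist in common and tissue-specific forms. In many cells hypoxia switches fuel use away from respiration, and Ndufa4l2 and Cox4i2 are known as hypoxia-induced relatives of common subunits.

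The arrays had medians from 4.45 to 4.52 on the log2 scale of the deposited values, on which every level in the text is given, and the number of arrays limits the precision. Among 13 epithelial markers, the simple-epithelium keratins Krt8 and Krt18 were bright. Krt8 read 12.65 to 12.84 in IR, 12.61 to 12.85 in NIR and 12.64 to 12.73 in PA. Krt18 read 11.94 to 12.00 in IR, 11.15 to 11.54 in NIR and 11.37 to 11.43 in PA. It was higher in IR than in NIR (log2 difference 0.57, limma adjusted p = 0.018). Its IR arrays also lay above all PA arrays, and limma called 1 of the 13 markers higher in IR than in PA and 0 lower. Krt14, Trp63, Cdh1 and Dsp, markers of squamous and adhesive epithelium, averaged below the median value of 4.49 and could not be told from background. Macrophage markers had a list mean, over 14 genes of which 6 averaged below 4.49, of 4.84 to 5.27 in IR, 4.80 to 4.92 in NIR and 4.61 to 4.73 in PA, with IR3 the highest array. Fibroblast markers, 10 genes with 3 below 4.49, had a list mean of 7.11 to 7.22 across IR arrays, 6.96 to 7.32 across NIR arrays and 6.76 to 6.92 across PA arrays. Limma called 1 fibroblast marker higher in IR than in PA, Dcn (1.24, adjusted p = 0.00265), 2 higher in NIR than in PA, Dcn (0.81, adjusted p = 0.0391) and Lum (1.29, adjusted p = 0.0241), and 1 macrophage marker higher in NIR than in PA, Mrc1 (0.75, adjusted p = 0.0156). Of all genes, 0.786% were called higher in IR than in NIR, 0.297% in IR than in PA and 0.379% in NIR than in PA. Of the 14 macrophage markers, 12 were positive in IR minus PA (median 0.24) and 10 in NIR minus PA (median 0.10). In IR against PA limma called 0 of them, while 6 were higher and 0 lower at an unadjusted p below 0.05. The shares of all genes at that level were 4.30% and 4.29%. In NIR against PA, 2 were higher and 0 lower, against 5.96% and 6.14% of all genes. The part of host cells in the differences below was not tested. In bulk RNA, fewer cells of a type and less RNA per cell cannot be told apart.

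The subunit genes were mostly bright, with a spread below that of all genes within IR and PA and close to it within NIR. Their means over the 9 arrays ran from 3.55 to 13.34 with a median of 11.12, and 67 of the 81 lay above 10. The 3 members below 4.49 were Ndufb4, Cox7c and the testis form Cox6b2. For Ndufb4 the bright probe sets also name Ndufb4b and Ndufb4c and were left out by the single-gene rule. Read by those, the signal was 10.25 to 10.42 on the brighter probe set. The chosen Ndufb4 and Cox7c probe sets therefore say nothing about these subunits. The SD within a group, pooled over the groups, had a median of 0.0766 over the 81 members, against 0.109 over all genes tested. By group that median came to 0.0502 for IR, 0.1 for NIR and 0.0608 for PA, against 0.0877, 0.101 and 0.0841 over all genes in the same order.

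**Figure D1:**
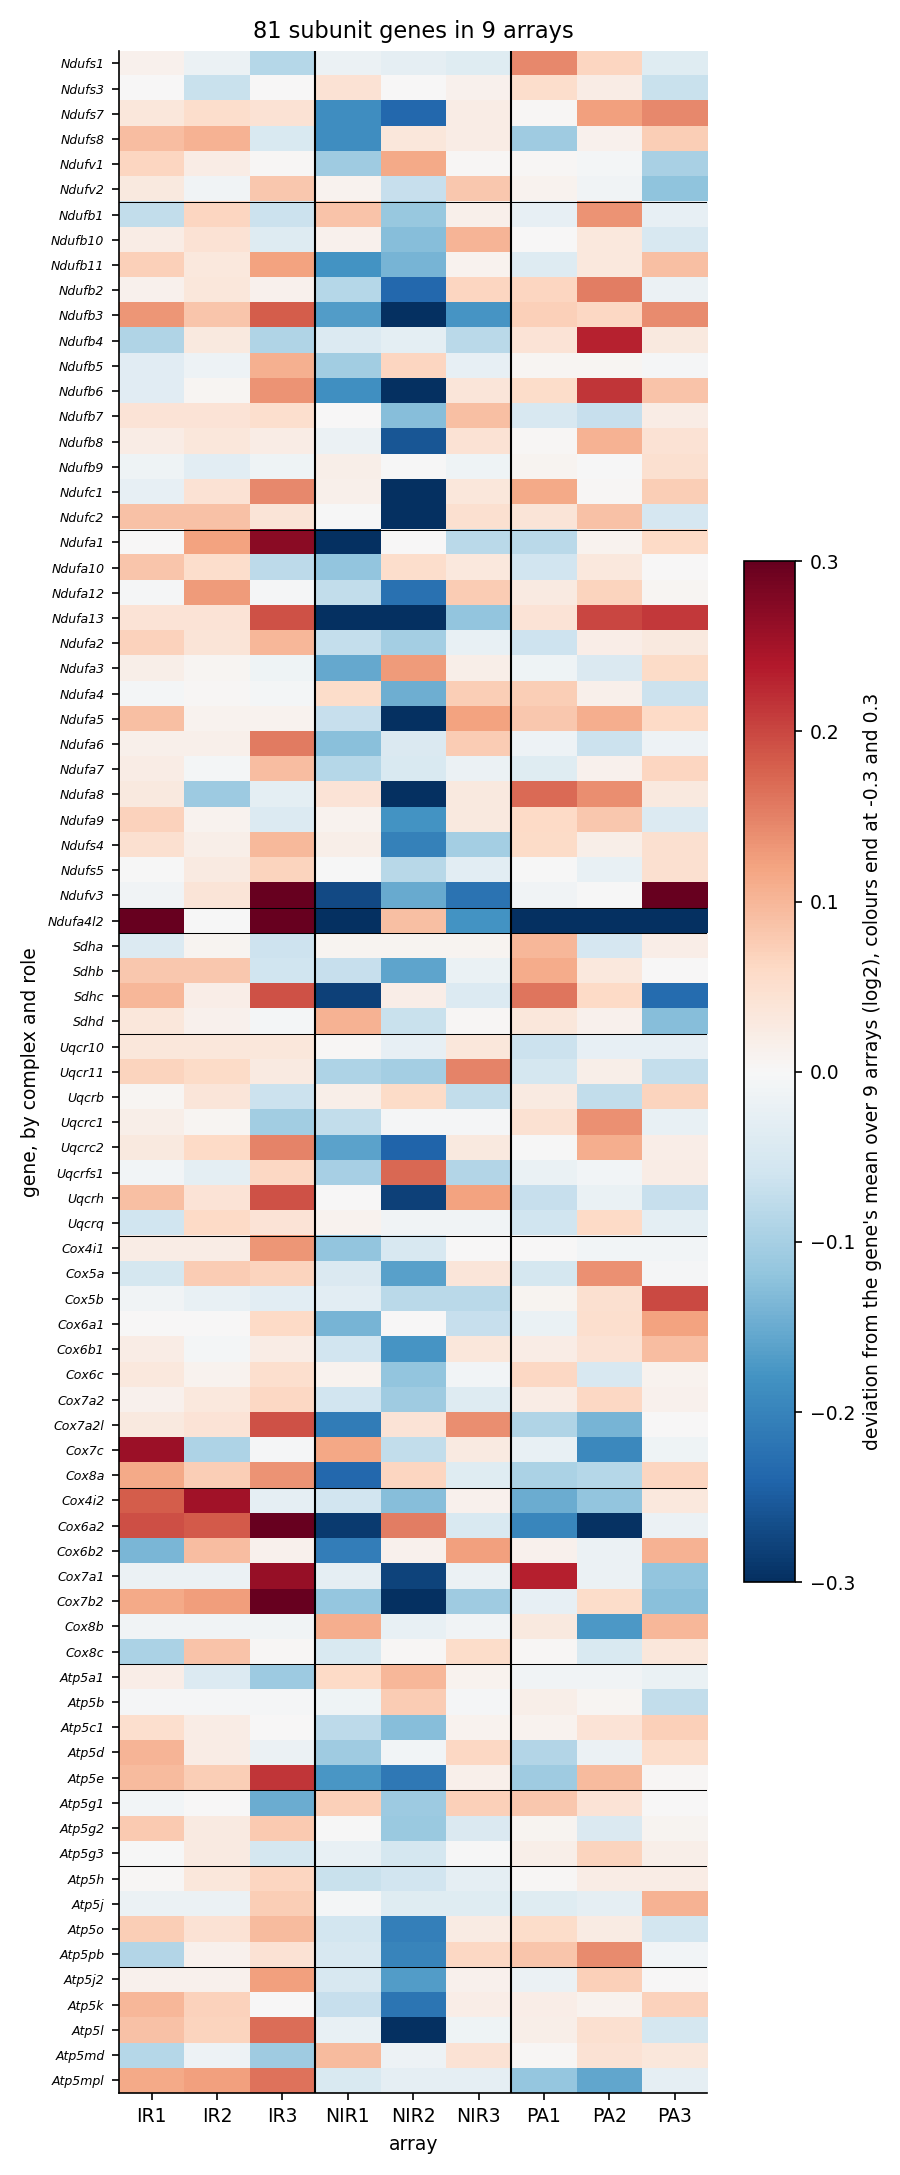
Deviation of each of the 81 subunit genes (rows, by complex and role) from its own mean over the 9 arrays (log2; colours end at -0.3 and 0.3), for the IR, NIR and PA arrays (columns). The blue rows collect in NIR1 and NIR2, and Ndufa4l2 stands out as high in IR1 and IR3 and low in all PA arrays.

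Most subunit genes had slightly positive differences of IR minus NIR, of which 1 passed the test, and the low values lay mostly in NIR1 and NIR2. Of the 81 members, 68 had a positive log2 difference of IR minus NIR, or 84%, against 50.5% of all genes tested. The median difference was 0.085 over the members and 0.0014 over all genes. Limma called 1 member higher, Ndufb3, and 0 lower at a Benjamini-Hochberg adjusted p below 0.05, beside 0.786% of all genes called higher and 0.863% called lower (1.65% in either direction). At an unadjusted p below 0.05, 13 members were higher and 0 lower, against 7.80% and 8.08% of all genes. In 21 members every IR array lay above every NIR array, and in 1, Atp5md, every IR array lay below, against 8.69% and 9.40% of all genes.

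Within the groups the shift was uneven. For each array, the deviation of a gene from its own mean over the 9 arrays was taken, and the median over the 81 members was 0.022, 0.031 and 0.039 in IR1, IR2 and IR3. It was -0.053, -0.083 and 0.012 in NIR1, NIR2 and NIR3, and 0.0057, 0.017 and 0.014 in PA1, PA2 and PA3. NIR1 and NIR2 were thus low, while NIR3 lay among the PA arrays and below every IR array. Over all genes tested the same medians stayed between -0.010 and 0.0042. NIR2 was the lowest of the 9 arrays for 37 of 81 members, or 45.7%, against 16% of all genes, and NIR1 for 20, or 24.7%, against 12.9%. IR3 was the highest array for 29 members, or 35.8%, against 15.9% of all genes, and it was also the lowest array for 17% of all genes. Without NIR2 the median difference of IR minus NIR was 0.048, and without NIR3 it was 0.12.

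**Figure D2:**
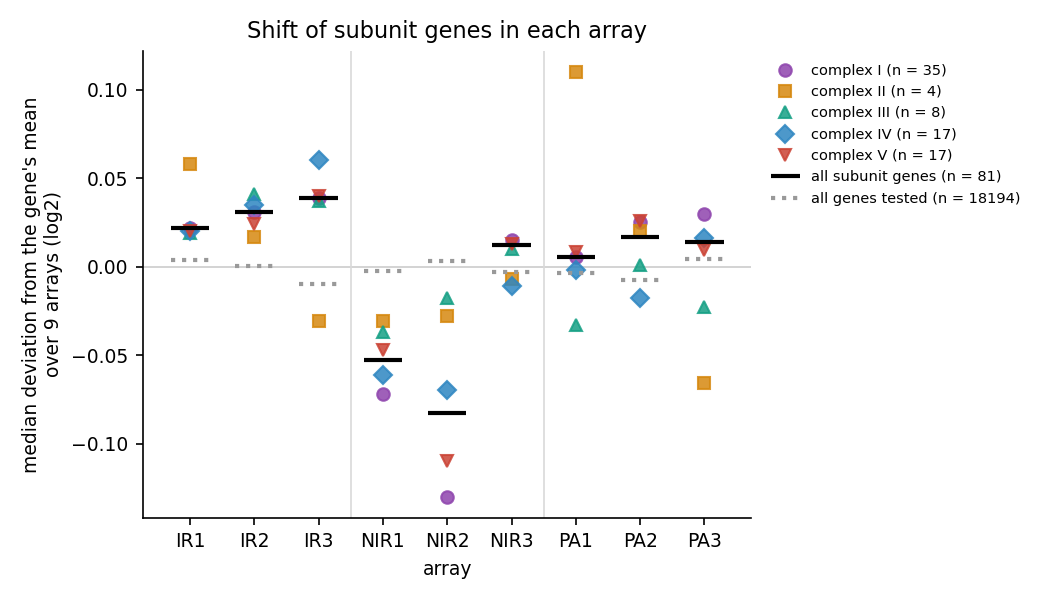
Median deviation of subunit genes from their mean over 9 arrays (vertical axis, log2) in each IR, NIR and PA array (horizontal axis), by complex (coloured symbols), over all 81 subunit genes (black lines) and over all 18194 genes tested (dotted grey lines). NIR1 and NIR2 lie lowest at -0.053 and -0.083, NIR3 lies at 0.012, and the IR arrays lie between 0.022 and 0.039.

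Against the parental culture, the differences of IR lines centred near 0 and those of NIR lines mostly lay below 0. In IR minus PA, 52 of 81 members were positive, or 64.2%, against 51.9% of all genes, with a median of 0.016 over the members and 0.0043 over all genes. None was called by limma (0 higher and 0 lower, against 0.297% and 0.758% of all genes, 1.06% in either direction), and the smallest adjusted p of a member was 0.117, for Ndufa4l2. At an unadjusted p below 0.05, 5 were higher and 0 lower, against 4.30% and 4.29% of all genes. The IR arrays lay above all PA arrays in 15 members and below them in 5, against 7.26% and 7.43% of all genes. In NIR minus PA, 21 were positive, or 25.9%, against 51.6% of all genes, with a median of -0.055 over the members and 0.0046 over all genes. Limma called 1 member lower, Ndufa13, and 0 higher, against 0.918% and 0.379% of all genes (1.30% in either direction). At an unadjusted p below 0.05, 0 were higher and 5 lower, against 5.96% and 6.14% of all genes. The share of lower members was thus close to that of all genes. The 5 (Ndufa13, Ndufb3, Ndufb6, Ndufs7 and Ndufv3) were all of complex I, which holds 35 of the 81 members. The NIR arrays lay above all PA arrays in 2 members and below them in 11, against 7.82% and 7.73% of all genes. The NIR arrays enter both this comparison and that of IR with NIR, so the 2 are not independent.

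Complex I, the NADH dehydrogenase and the largest of the complexes, held 35 of the 81 members and both called genes. Members were placed by symbol, so these 35 include Ndufa4, now assigned to complex IV, and its relative Ndufa4l2. Of its 35 members 31 were positive in IR minus NIR (median 0.092), 20 in IR minus PA (median 0.012) and 6 in NIR minus PA (median -0.077). Ndufb3, an accessory subunit of the membrane arm, read 10.39, 10.34 and 10.44 in IR, 10.09, 9.93 and 10.08 in NIR, and 10.33, 10.32 and 10.40 in PA. Every NIR array lay below all IR and PA arrays, which overlapped each other. The IR lines averaged 10.39 ± 0.0494, the NIR lines 10.04 ± 0.0909 and the parental culture 10.35 ± 0.0458 (SD over 3 arrays). Ndufb3 (Entrez Gene 66495) in IR stood 1.28-fold above NIR (log2 difference 0.35, SE 0.0712, limma adjusted p = 0.037). In NIR against PA its difference of -0.32 did not pass (adjusted p = 0.0598), and in IR against PA it was 0.037 with a 95% interval from -0.12 to 0.19. The call against NIR was lost whichever array was left out, with limma adjusted p from 0.0525 (without NIR3) to 0.103 (without IR3).

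Ndufa13, an accessory subunit needed to build complex I and also known as GRIM-19, read 11.48, 11.48 and 11.63 in IR, 11.13, 11.14 and 11.32 in NIR, and 11.48, 11.64 and 11.65 in PA. Here too the NIR arrays lay below all others, with a mean of 11.20 ± 0.109, against 11.59 ± 0.098 in PA (SD, n = 3 each). Ndufa13 (Entrez Gene 67184) was 1.31-fold lower in NIR than in PA (log2 difference -0.39, SE 0.0836, limma adjusted p = 0.047), a call that held without IR3 or NIR3 and was lost without any of the other 7 arrays (adjusted p up to 0.186, without PA2). Its 0.33 for IR minus NIR did not pass (adjusted p = 0.074). The probe set of Ndufa13 can bind more than 1 transcript. In Ndufv3, an accessory subunit of the NADH-binding arm, the NIR arrays were again the lowest. It read 11.05, 11.10 and 11.39 in IR, 10.79, 10.91 and 10.84 in NIR, and 11.05, 11.06 and 11.36 in PA, and passed in no comparison (adjusted p = 0.148 for IR minus NIR).

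In Ndufb6, Ndufs7, Ndufc1, Ndufa5, Ndufa8 and Ndufa1, NIR1 or NIR2 was the lowest of the 9 arrays. Ndufb6, a membrane-arm subunit, read 10.87, 10.91 and 11.04 in IR, 10.72, 10.59 and 10.94 in NIR, and 10.96, 11.12 and 10.99 in PA, with a log2 difference of -0.27 for NIR minus PA (adjusted p = 0.259). Ndufs7, which carries the last iron-sulfur cluster before ubiquinone, read 10.77, 10.79 and 10.78 in IR, 10.55, 10.50 and 10.76 in NIR, and 10.74, 10.86 and 10.88 in PA (-0.22, adjusted p = 0.282). In Ndufc1, a membrane-arm subunit, NIR2 alone was low, at 11.28 against 11.70 in NIR1 and 11.72 in NIR3, and without NIR2 its difference from PA was -0.038. In the accessory subunits Ndufa5 and Ndufa8 the differences from PA were -0.21 and -0.19, and without NIR2 they were -0.061 and -0.079. Ndufa1, a small membrane-arm subunit, was lowest in NIR1, at 11.46 against 11.76 and 11.68 in NIR2 and NIR3, with 0.26 for IR minus NIR (adjusted p = 0.206).

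The electron-carrying core of complex I and its accessory subunits are given apart, a split chosen after the values were seen and given without a test. The 6 core genes measured, Ndufs1, Ndufs3, Ndufs7, Ndufs8, Ndufv1 and Ndufv2, hold the flavin and iron-sulfur clusters or sit beside them. Their median deviation in NIR2 was -0.017, against -0.14 for the 13 Ndufb and Ndufc genes and -0.14 for the 15 other accessory genes. In NIR1 the order differed, with -0.063 for the core, -0.019 for the Ndufb and Ndufc genes and -0.075 for the others. In IR minus NIR the medians were 0.027 for the core, 0.11 for the Ndufb and Ndufc genes and 0.094 for the other accessory genes. Among the core genes, Ndufs3 had a difference of -0.039, Ndufs1 -0.0028, Ndufv1 0.026, Ndufv2 0.028, Ndufs8 0.092 and Ndufs7 0.17. Against PA, Ndufs1 had -0.087 in IR (adjusted p = 0.82). All 15 other accessory genes had positive differences, as did 11 of the 13 Ndufb and Ndufc genes. Ndufb9, a membrane-arm subunit, had -0.016. Without NIR2 the signs were not uniform. Ndufa4, placed by symbol with the other accessory genes, then had -0.067, Ndufa8 -0.069 and Ndufa9 -0.0094. Ndufb10 then had -0.050 and the core gene Ndufv2 -0.011.

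Complexes II and III had the lowest medians of IR minus NIR. Complex II, succinate dehydrogenase, links the chain to the citric acid cycle, and 3 of its 4 genes were positive in IR minus NIR with a median of 0.059. The flavoprotein gene Sdha had -0.042 and the iron-sulfur protein gene Sdhb 0.12. The membrane anchor Sdhc read 10.01, 9.93 and 10.10 in IR, 9.63, 9.93 and 9.87 in NIR, and 10.07, 9.97 and 9.68 in PA. The groups overlapped, and its 0.20 for IR minus NIR had an adjusted p of 0.412. In complex III, which hands electrons from ubiquinol to cytochrome c, 6 of 8 genes were positive with a median of 0.023. The IR and NIR arrays overlapped in all 8. Of all genes, 8.69% had every IR array above every NIR array and 9.40% below, so 8 genes say little here. Uqcrc2, a core protein, read 11.04, 11.07 and 11.16 in IR, 10.85, 10.77 and 11.04 in NIR, and 11.01, 11.12 and 11.03 in PA (0.20 for IR minus NIR, adjusted p = 0.245). Uqcrfs1, the Rieske iron-sulfur protein, had 0.013, and NIR2 was the highest of its 9 arrays at 11.27. Uqcrh, the hinge protein beside cytochrome c1, read 11.72, 11.67 and 11.82 in IR, 11.63, 11.35 and 11.75 in NIR, and 11.56, 11.61 and 11.56 in PA, with all IR arrays above all PA arrays (0.16, adjusted p = 0.723). The other core protein, Uqcrc1, had -0.080 for IR minus PA (adjusted p = 0.848).

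In complex IV, cytochrome c oxidase, 15 of 17 genes were positive in IR minus NIR (median 0.092), 13 in IR minus PA (median 0.022) and 6 in NIR minus PA (median -0.050). The 10 widely expressed forms were all positive against NIR, between 0.030 (Cox7c, at background) and 0.18 (Cox8a), and none was called. Cox6b1 and Cox7a2, the common counterparts of tissue forms, had 0.078 and 0.10. Cox4i1, the common form of subunit 4, read 12.36, 12.36 and 12.47 in IR, 12.22, 12.29 and 12.34 in NIR, and 12.34, 12.33 and 12.33 in PA. The IR arrays lay just above all others, by 0.11 over NIR (adjusted p = 0.472). Cox7a2l, which helps join complexes III and IV into supercomplexes, read 11.02, 11.03 and 11.18 in IR, 10.78, 11.03 and 11.13 in NIR, and 10.90, 10.85 and 10.99 in PA, with 0.16 for IR minus PA (adjusted p = 0.719). Cox5b, a zinc-binding subunit, read 12.64, 12.63 and 12.62 in IR, 12.62, 12.57 and 12.57 in NIR, and 12.66, 12.70 and 12.85 in PA. Its PA arrays lay above all others, with -0.10 for IR minus PA (adjusted p = 0.768).

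The hypoxia-induced Ndufa4l2 had the largest difference of a subunit gene in each comparison, and it did not pass in any. Ndufa4l2 (Entrez Gene 407790), a relative of Ndufa4 that hypoxia-inducible factors switch on, read 7.09, 6.45 and 8.95 in IR, 5.90, 6.54 and 6.27 in NIR, and 5.70, 5.31 and 5.84 in PA. Every IR array lay above every PA array, the IR and NIR arrays overlapped and IR3 was the highest array. IR3 also had the highest macrophage marker mean, whose part in this was not tested. The log2 difference was 1.88 for IR minus PA (SE 0.469, limma adjusted p = 0.117) and 1.26 for IR minus NIR (adjusted p = 0.209). Without IR3 the difference from PA was 1.15 and passed (adjusted p = 0.038), without IR2 it was 2.40 (adjusted p = 0.0298), and without any of the other 7 arrays it did not pass. The difference from NIR was 0.53 without IR3 and 1.78 without IR2. The common gene Ndufa4, now assigned to complex IV although named for complex I, read 11.00, 11.01 and 11.00 in IR, 11.06, 10.86 and 11.08 in NIR, and 11.08, 11.02 and 10.94 in PA. Its difference was 0.0023 for IR minus NIR, with a 95% interval from -0.17 to 0.17.

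Cox4i2, the hypoxia-induced form of subunit 4 known from lung, read 4.99, 5.06 and 4.78 in IR, 4.75, 4.68 and 4.82 in NIR, and 4.66, 4.69 and 4.84 in PA. These values were near the median of all probe sets, the groups overlapped, and the differences of 0.20 from NIR and 0.21 from PA did not pass (adjusted p = 0.306 and 0.518). Cox6a2, the heart and skeletal muscle form of subunit 6a, read 7.95, 7.94 and 8.07 in IR, 7.47, 7.91 and 7.71 in NIR, and 7.56, 7.46 and 7.74 in PA. All IR arrays lay above all others, by 0.40 over PA (adjusted p = 0.176) and 0.29 over NIR (adjusted p = 0.221). Averaging its 2 probe sets gave 0.39 over PA, which limma called (adjusted p = 0.0248). The second of these sets averaged 3.97, below the median value of 4.49. That call thus rests in part on a set that could not be told from background. Cox7b2, a testis form, read 7.38, 7.39 and 7.66 in IR, 7.15, 6.95 and 7.16 in NIR, and 7.24, 7.32 and 7.14 in PA, again with all IR arrays on top (0.39 over NIR, adjusted p = 0.0673). The muscle forms Cox7a1 and Cox8b and the testis forms Cox6b2 and Cox8c had differences of 0.19, -0.036, 0.013 and -0.0062 for IR minus NIR, none called.

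**Figure D3:**
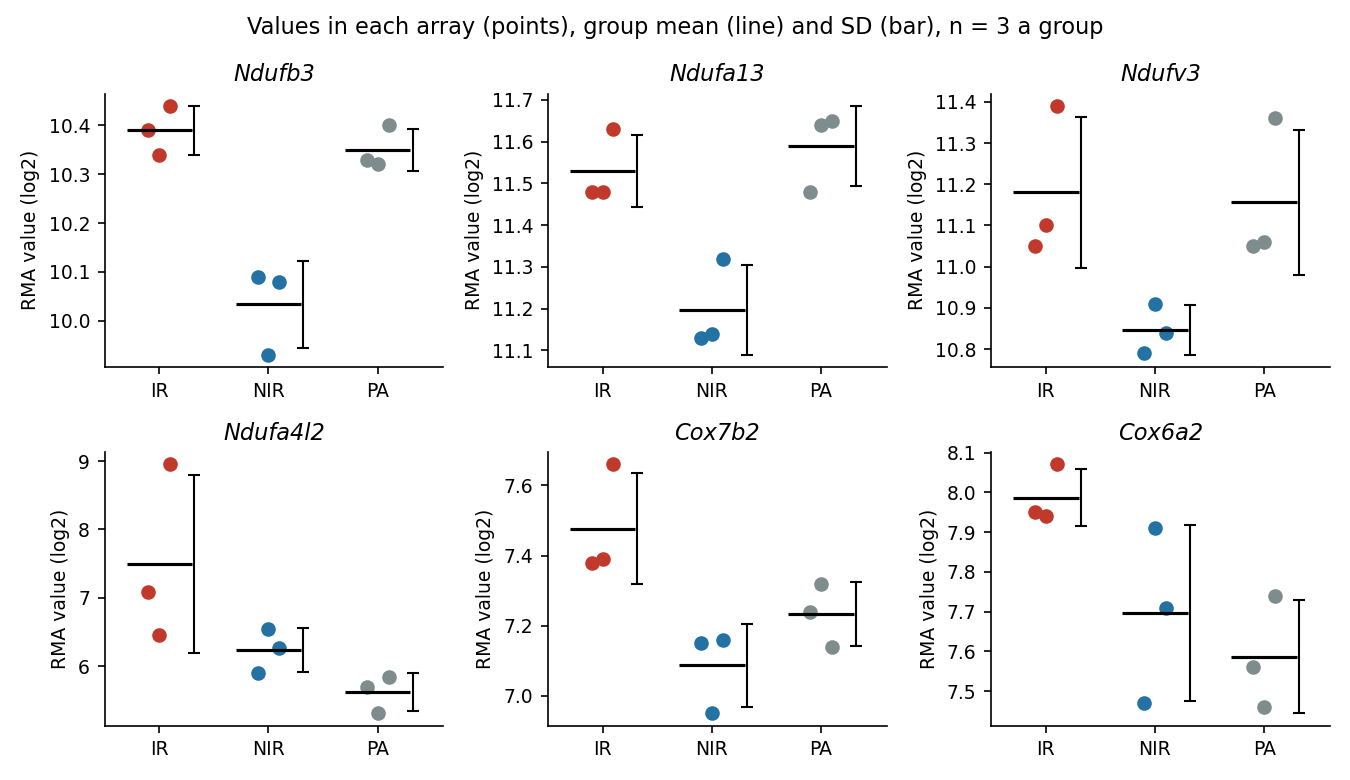
RMA value (log2, vertical axis, a separate scale for each gene that does not start at 0) of 6 subunit genes in each IR, NIR and PA array (points), with the group mean (line) and SD (bar, n = 3). NIR arrays lie below all others for Ndufb3, Ndufa13 and Ndufv3, and IR3 reaches 8.95 for Ndufa4l2.

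In ATP synthase 13 of 17 genes were positive in IR minus NIR (median 0.085), 11 in IR minus PA (median 0.021) and 5 in NIR minus PA (median -0.060). The catalytic beta subunit Atp5b read 12.89, 12.89 and 12.89 in IR, 12.88, 12.97 and 12.89 in NIR, and 12.91, 12.90 and 12.82 in PA, with -0.020 for IR minus NIR and a 95% interval from -0.16 to 0.12. The alpha subunit Atp5a1 had -0.10 for IR minus NIR (adjusted p = 0.508). The epsilon subunit Atp5e, the smallest of the F1 head, read 10.87, 10.85 and 10.99 in IR, 10.60, 10.56 and 10.79 in NIR, and 10.67, 10.87 and 10.78 in PA (0.25 for IR minus NIR, adjusted p = 0.160). Its IR arrays lay above all NIR arrays and overlapped PA.

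Atp5g1, Atp5g2 and Atp5g3 encode the c subunit of the ring, and their differences of IR minus NIR were -0.065, 0.11 and 0.020, none called. Atp5l, the g subunit of the membrane sector, was low in NIR2, at 11.13 against 11.41 and 11.42 in NIR1 and NIR3 (0.21 for IR minus NIR, adjusted p = 0.246). Atp5mpl, a small proteolipid of the membrane sector, read 11.23, 11.24 and 11.28 in IR, 11.07, 11.09 and 11.09 in NIR, and 11.00, 10.96 and 11.09 in PA. All IR arrays were above all others, by 0.23 over PA (adjusted p = 0.181) and 0.17 over NIR (adjusted p = 0.225). The NIR and PA arrays overlapped. Atp5md, another small membrane subunit, ran the other way at 10.36, 10.43 and 10.34 in IR, 10.54, 10.43 and 10.49 in NIR, and 10.45, 10.49 and 10.48 in PA (-0.11 for IR minus NIR, adjusted p = 0.461). Its IR2 and NIR2 values are equal as rounded, with NIR2 the higher before rounding. Atp5pb, the b subunit of the stalk, had -0.082 for IR minus PA (adjusted p = 0.871) and -0.13 for NIR minus PA (adjusted p = 0.567).

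**Figure D4:**
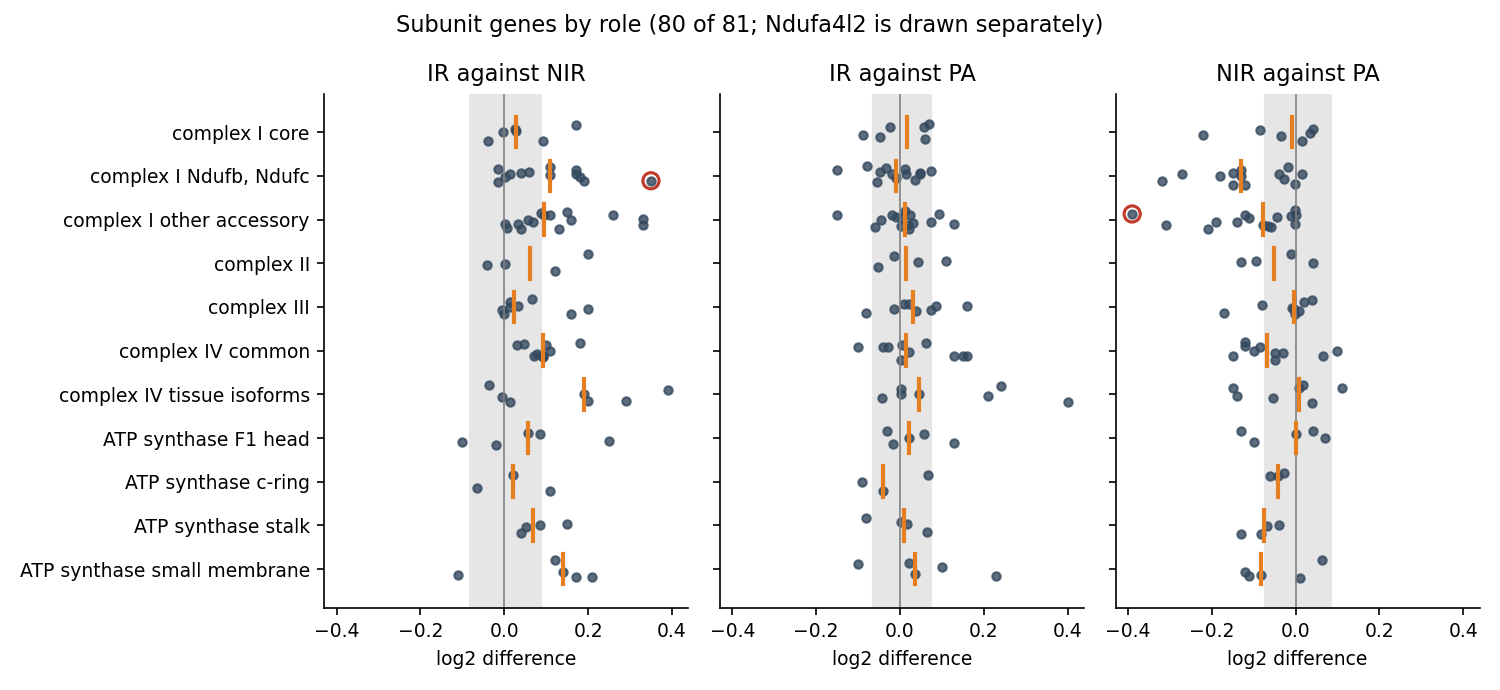
Log2 difference (horizontal axis) of 80 subunit genes, by role (rows), for IR minus NIR, IR minus PA and NIR minus PA (panels). Points are genes, orange lines the median of a role, red rings genes called by limma, and the grey band the middle of all genes tested, from the lower to the upper quartile; the rings mark Ndufb3 at 0.35 and Ndufa13 at -0.39.

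Other probe sets of the same genes gave shifts of similar size. The members had 83 further single-gene probe sets, of which 68 averaged above 4.49. Of these 68, 56 were positive in IR minus NIR (median 0.099), 44 in IR minus PA (median 0.028) and 16 in NIR minus PA (median -0.066), and limma called 0 in each. They were read on the same arrays as the chosen probe sets, so they are no independent measurement. When probe sets that can bind several transcripts were left out, 65 members remained, 27 of them read by another probe set, and the medians were 0.047 for IR minus NIR and -0.019 for NIR minus PA. Of the 65, 6 averaged below 4.49, and over the other 59, a choice made after the values were seen, the medians were 0.065 and -0.027.

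Of 15 complex I assembly genes measured, 7 were positive in IR minus NIR (median -0.0016) and 1 rose, Ndufaf3, an assembly factor (8.54, 8.54 and 8.80 in IR, against 8.14, 8.23 and 8.30 in NIR; 0.41, limma adjusted p = 0.0457). Of 18 complex IV assembly genes, 8 were positive (median -0.0096) and 1 rose, Cox20, a chaperone of subunit COX2 (9.43, 9.54 and 9.66 in IR, against 8.92, 9.23 and 9.17 in NIR; 0.43, adjusted p = 0.0497). Both calls were lost whichever array was left out, with adjusted p up to 0.122 for Ndufaf3 and 0.151 for Cox20 (both without IR3). Of 10 complex II and III assembly genes 4 were positive (median -0.040) and of 3 ATP synthase assembly genes 2 (median 0.072), and limma called 0, with Sdhaf4 (0.32, adjusted p = 0.152) and Atpaf2 (-0.080, adjusted p = 0.695) having the smallest p. At an unadjusted p below 0.05, 3 of the 10 were higher and 0 lower, and none of the 3. At that level 3 complex I assembly genes were higher and 1 lower, and 1 complex IV assembly gene was higher and 3 lower. Of all genes in IR against NIR, 7.80% were higher and 8.08% lower at that level, and 0.786% and 0.863% at the adjusted threshold. Of 15 genes for ubiquinone synthesis, cytochrome c and other electron carriers, 10 were positive (median 0.033) and 0 were called, Coq3 coming nearest (0.34, adjusted p = 0.074) and being the 1 gene at an unadjusted p below 0.05. In IR minus PA and NIR minus PA, limma called 0 of these assembly and carrier genes. None of the 13 genes encoded in mitochondrial DNA was matched to a single-gene probe set, and they were not analysed here.

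Of 16 citric acid cycle genes, 6 were positive in IR minus NIR (median -0.038), and 0 were called in any comparison, with Suclg2 nearest between IR and NIR (-0.18, adjusted p = 0.203), the 1 gene at an unadjusted p below 0.05 there. Of 16 regulators of mitochondrial biogenesis and mitochondrial DNA, 6 were positive (median -0.035) and 0 were called. Pprc1, a coactivator of the PGC-1 family, had -0.33 (limma adjusted p = 0.139). At an unadjusted p below 0.05, 3 regulators were higher and 2 lower, against 7.80% and 8.08% of all genes. Of 8 genes, carriers and channels for ATP, phosphate and pyruvate and Atpif1, the inhibitor of ATP synthase, 0 were called. Of the 8, 1 was higher and 1 lower at an unadjusted p below 0.05. Atpif1 had 0.40 for IR minus NIR (limma adjusted p = 0.190).

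Of 10 genes known from the switch of mitochondria in hypoxia, 2 rose in IR against NIR, 0 fell and 8 did not pass. Of all genes, 0.786% were called higher and 0.863% lower. At an unadjusted p below 0.05, 6 of the 10 were higher and 1 lower, against 7.80% and 8.08% of all genes. With the compared groups alone 0 passed the adjusted threshold, and without probe sets that can bind several transcripts 1 of the 7 genes left did. Bnip3, a mitophagy protein, read 10.14, 10.12 and 10.91 in IR, 8.53, 8.98 and 8.79 in NIR, and 9.71, 9.40 and 10.26 in PA (1.62 for IR minus NIR, limma adjusted p = 0.00985). Pdk1, which turns off pyruvate dehydrogenase, read 8.42, 8.43 and 9.29 in IR, 7.04, 7.34 and 7.73 in NIR, and 8.30, 8.42 and 8.45 in PA. It was higher in IR than in NIR (1.34, adjusted p = 0.0172, lost without NIR1 or NIR2) and lower in NIR than in PA (-1.02, adjusted p = 0.047, held only without IR3 or NIR3 when each array was left out). With the mean of probe sets, or with array medians subtracted, 0 of the 10 genes passed in NIR against PA. For both genes all NIR arrays lay below all IR and PA arrays. Of the 10 genes, Ndufa4l2 and Cox4i2 are subunit genes described above. Both are among the 6 that were higher (limma unadjusted p = 0.0208 and 0.0474). They are thus also among the 13 subunit genes counted at that level.

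The promoters of the members were searched for the letters of factors known to drive respiratory genes. RefSeq promoter sequences, 300 bases around the gene start in build GRCm38.p6, were matched for 66 of the 81 members. The palindromic motif of NRF1, nuclear respiratory factor, stood in 4 of 66, or 6.06%, against 1.07% of 27025 genes with a promoter. The ETS motif bound by GABP, CCGGAAG on either strand, stood in 17, or 25.8%, against 9.93%. The YY1 motif AAGATGGC on either strand stood in 9, or 13.6%, against 3.19%. The core of the hypoxia response element, ACGTG on either strand, stood in 18, or 27.3%, against 21.8%. No NRF1, ETS or YY1 match overlaps another in the sequences shown, and a match is a description, not a site. The promoters of the 2 called genes are shown with 2 that hold both an NRF1 and an ETS match, marked by capitals, 5′ to 3′ on the strand of the gene. The called genes hold none of the NRF1, ETS and YY1 letters in this window. The same holds for many uncalled members, such as Ndufa10, Ndufa12, Cox5b and Atp5b, so it does not set the called genes apart.
Ndufb3, chr1:58586147-58586446, plus strand: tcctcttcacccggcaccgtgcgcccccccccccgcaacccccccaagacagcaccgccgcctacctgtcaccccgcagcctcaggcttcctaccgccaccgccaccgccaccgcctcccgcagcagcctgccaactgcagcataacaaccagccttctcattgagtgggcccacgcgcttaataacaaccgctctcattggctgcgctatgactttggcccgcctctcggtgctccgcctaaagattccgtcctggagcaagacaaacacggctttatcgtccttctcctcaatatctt
Ndufa13, chr8:69901971-69902270, minus strand: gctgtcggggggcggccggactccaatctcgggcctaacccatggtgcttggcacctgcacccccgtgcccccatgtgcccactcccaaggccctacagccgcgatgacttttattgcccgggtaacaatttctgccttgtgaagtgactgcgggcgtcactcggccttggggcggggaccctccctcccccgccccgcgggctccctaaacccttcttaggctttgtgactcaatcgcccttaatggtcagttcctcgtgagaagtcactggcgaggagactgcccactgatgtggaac
Cox6a1, chr5:115348909-115349208, minus strand: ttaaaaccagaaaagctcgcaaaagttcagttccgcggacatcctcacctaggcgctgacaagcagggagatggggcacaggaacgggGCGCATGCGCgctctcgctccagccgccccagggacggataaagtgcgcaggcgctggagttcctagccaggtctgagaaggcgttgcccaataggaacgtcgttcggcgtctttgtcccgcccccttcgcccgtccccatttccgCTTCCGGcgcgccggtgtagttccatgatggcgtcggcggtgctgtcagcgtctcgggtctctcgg
Atp5k, chr5:108434350-108434649, minus strand: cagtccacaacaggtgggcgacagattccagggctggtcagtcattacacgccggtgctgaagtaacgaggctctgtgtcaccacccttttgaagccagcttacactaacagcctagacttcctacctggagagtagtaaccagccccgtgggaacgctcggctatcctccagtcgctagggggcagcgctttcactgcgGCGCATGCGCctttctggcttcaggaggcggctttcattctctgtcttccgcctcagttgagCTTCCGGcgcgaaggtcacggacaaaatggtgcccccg
Cox6a1, the common form of subunit 6a, read 13.01, 13.01 and 13.07 in IR, 12.87, 13.01 and 12.94 in NIR, and 12.99, 13.06 and 13.13 in PA (0.092 for IR minus NIR, limma adjusted p = 0.591). Atp5k, the e subunit of ATP synthase, read 11.78, 11.75 and 11.68 in IR, 11.61, 11.46 and 11.70 in NIR, and 11.70, 11.69 and 11.75 in PA (0.14, adjusted p = 0.394). Both are among the members with small positive differences that did not pass.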

How the data were processed

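RNA from 9 SCCVII samples (IR, NIR and PA, 3 each) was hybridised to 1-colour Affymetrix mouse arrays. The deposited values are on a log2 scale, from 2.47 to 14.01, and RMA is named per the submitters' processing notes; scanner files were not used here. Of 45100 probe sets, 34944 name 1 gene, 932 several and 9160 none, besides 64 controls; only the first kind was used, giving 18194 genes. limma 3.58.1 in R 4.3.3 was fitted once to all genes and arrays with a mean per group, with Benjamini-Hochberg adjustment over all genes in each comparison (threshold 0.05). The fit was tested on simulated data. Text names every called subunit gene, the 8 largest differences in each direction and comparison, the tissue isoforms and, from each other list, called genes or the one with the smallest p; others were chosen after their values were seen. The members and lists were chosen with earlier results of these data known, and role groups and motifs after the values were seen. Replicate numbers gave no sign of pairing the samples, and the fit used no pairing. Alternatives changed the probe set rule, filter, scaling, variance model and samples.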

Additional observations from a re-analysis of the deposited data

How the results depend on the processing

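The count of subunit genes called for IR against NIR, 1 as reported, was 2 after quantile normalization and with a variance trend and robust fit, 0 with the replicate block and 0 with the compared groups alone, and 0 whichever array was left out. For IR against PA it was 0, 1 with the mean of probe sets, and 0 to 1 leaving out each array. For NIR against PA it was 1. It was 2 with the mean of probe sets, with only genes above the median probe set and with the trend and robust fit. It was 0 with array medians subtracted and with the compared groups alone, and 0 to 1 leaving out each array. Without probe sets that can bind several transcripts it was 0 as well. The called gene Ndufa13 has only such a probe set, so its call could not be kept there and was not checked by that setting. The median difference over subunit genes was 0.047 for IR against NIR and -0.019 for NIR against PA without probe sets that can bind several transcripts; leaving out each array gave 0.048 to 0.12 for IR against NIR, 0.0045 to 0.026 for IR against PA and -0.079 to -0.037 for NIR against PA. The same-number correlations of deviations from group means ran from -0.20 to 0.097. Those of different numbers ran from -0.12 (NIR1 with PA3) to 0.25 (NIR2 with PA3), and what such arrays share was not tested. The replicate numbers gave no sign of pairing, which does not show that the samples are unpaired. With the replicate block the calls over all genes were 230, 164 and 203, against 300, 192 and 236. Over all genes, 11 were called for IR against NIR with the compared groups alone, and leaving out each array gave 77 to 271, 99 to 214 for IR against PA and 121 to 370 for NIR against PA. Sign changes were followed only for called genes and for the 8 largest differences in each direction and comparison. Other members also changed sign, as Ndufa8 did for IR minus NIR (0.041, and -0.069 without NIR2). The uncalled differences that changed sign among those followed are given next. For IR minus NIR they were Atp5a1 (0.038, mean of probe sets) and Atp5g1 (0.0047, without probe sets that can bind several transcripts). Leaving out each array, they were also Cox8b (-0.061 to 0.0067) and Atp5b (-0.037 to 0.0078). For IR minus PA, without probe sets that can bind several transcripts, they were Cox5b (0.059), Atp5g1 (0.0033) and Atp5pb (0.0039). For NIR minus PA they were Atp5a1 (-0.054) and Sdhd (-0.011) with the mean of probe sets, Cox7c (-0.0058) without probe sets that can bind several transcripts, and, leaving out each array, Sdhd (-0.0084 to 0.083) and Cox7a2l (-0.010 to 0.16). Without probe sets that can bind several transcripts, Cox5b, Atp5g1 and Cox7c are read by sets averaging 4.67, 3.40 and 3.42, near or below the median of 4.49, so their signs say nothing about these genes. The cause of the other changes was not tested. With 3 arrays a group, most subunit differences were too small to call.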
